A study of Homo sapiens with 8 samples.

Results

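DEAD-box and DEAH-box proteins are the largest family of RNA helicases, enzymes that use ATP to unwind RNA duplexes or to strip proteins from RNA, and they are named after the amino acid letters of a motif in their ATPase core. The genes described here are the protein-coding ones whose symbol is DDX or DHX followed by a number and at most a single letter, without DDX6. This rule gave 53 of 19951 protein-coding genes, 37 with a DDX and 16 with a DHX symbol. A YTHDF2 site was counted for a gene when its position lay inside the gene's span on the gene's strand. By this rule 38 of the 53 genes had a site, and together they held 225 sites, or 0.598% of the 37613 distinct positions in the deposited list.

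YTHDF2 is a cytoplasmic reader of N6-methyladenosine (m6A), the methylated base that the METTL3-METTL14 enzyme writes into mRNA, and it recruits the deadenylation machinery to the transcripts it binds. Its contacts were mapped by iCLIP2, in which reverse transcription stops at a nucleotide that ultraviolet light has crosslinked to the protein. The cells were wild-type HEK293T, an established human embryonic kidney line, in 2 groups of 4 libraries. In the first group, cells received 20 µM STM2457, an inhibitor of METTL3, in 0.2% DMSO for 12 h, and in the second group they received 0.2% DMSO without the inhibitor for the same time. The list has 1 score per row and 0 columns that belong to a library, so it gives no replicate error, no read depth and no comparison of STM2457 with DMSO. All values below describe genes and sites of this list. Genes are not replicates and no test was made over them.

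DEAD-box proteins mostly act locally on short duplexes or remodel RNA-protein complexes, whereas many DEAH-box proteins move along RNA. Members work in splicing, ribosome assembly, mRNA export, translation and the sensing of foreign RNA. They are described here as RNAs that YTHDF2 contacts, not as proteins.

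The share of helicase genes with a site was 71.7%, against 38.9% over all protein-coding genes. Genes with 5 or more sites made up 23 of the 53 (43.4%, against 15% of all genes), and genes with 10 or more made up 7 of the 53 (13.2%, against 4.95%). Only 3 of the 38 bound members had a single site, compared with 22.2% of all bound genes. Per bound member the median was 5 sites (quartiles 3.25 and 7), whereas for bound genes in general it was 3 (quartiles 2 and 6). The median span was 31.1 kb for the bound members and 31.7 kb for all bound genes, and the median density per kb of span was 0.177 and 0.109 sites. RNA levels were not measured in this list, so a difference in abundance and a difference in binding cannot be told apart, here or in any comparison of genes below.

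**Figure D1:**
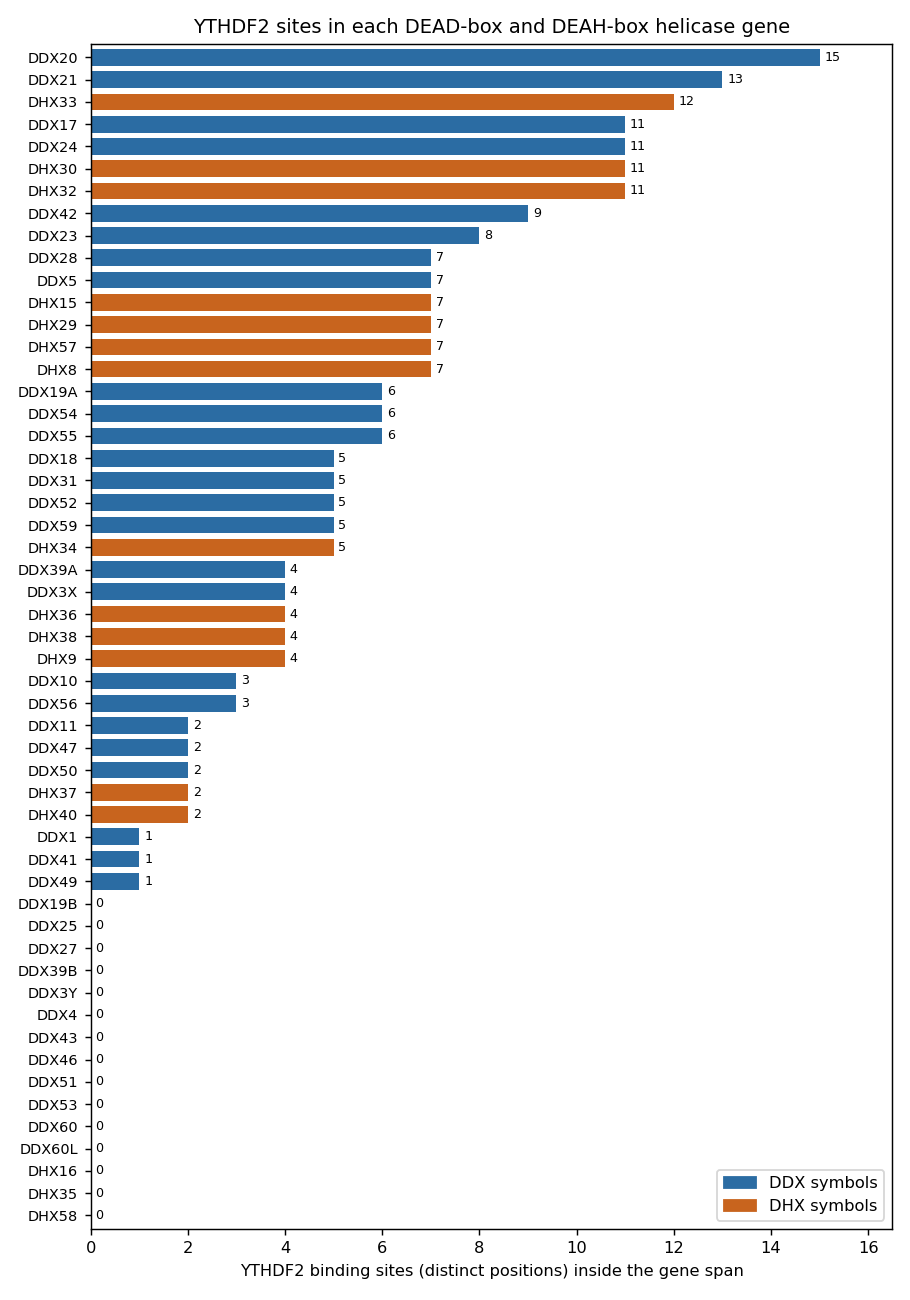
Bars give the number of distinct YTHDF2 positions inside the span of each of the 53 helicase genes, with DDX symbols in blue and DHX symbols in orange. DDX20 leads with 15 sites, 7 genes have 10 or more, and 15 genes have none.

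Other families of RNA-binding or ATPase genes were set beside the helicases with the same counting. Of 27 RNA helicases and relatives with other names, 16 had a site (59.3%), with a median of 4.5 sites per bound gene and 0.131 sites per kb. All 12 SR splicing factors had a site, but the median was 2 sites at 0.152 per kb. Of 26 hnRNP genes 19 were bound, with a median of 3 sites at 0.188 per kb. Of 42 kinesin genes, an unrelated ATPase family, 24 were bound, with a median of 3 sites at 0.0696 per kb. The helicases were thus second to the hnRNP genes in density and had the highest median number of sites among these lists. Genes with 10 or more sites were 13.2% of the helicases and 14.8% of the relatives with other names. Median spans of bound genes were 9.66 kb (SR), 14.25 kb (hnRNP), 31.1 kb (helicases), 36.5 kb (relatives) and 56.6 kb (kinesins). The part of span in these densities was not tested. The difference between lists was not tested.

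The helicases of transcription, small RNA and tRNA processing were bound in all 4 cases, and this small group holds the gene with the most sites. Counts bound in this and the following role groups stand beside 71.7% of the family and 38.9% of all protein-coding genes. The groups are small, and differences between them were not tested. DDX20 (Gemin3), a subunit of the SMN complex that assembles spliceosomal snRNPs, had 15 sites on chromosome 1 in a span of 12.1 kb, or 1.24 per kb, and 260 protein-coding genes had more sites. Of these sites 12 lay within 996 nt, from 111765933 to 111766928 (GRCh38, plus strand). In 5′ to 3′ order the scores were 9.09 at 111760736, 3.81 at 111765933, 15.2 at 111766029, 14.9 at 111766192, 48.7 at 111766291, 38.8 at 111766335, 0.663 at 111766388, 65.3 at 111766475, 57.1 at 111766590, 19.6 at 111766666, 7.28 at 111766694, 23.3 at 111766827, 137 at 111766928, 4.39 at 111767006 and 4.12 at 111767142. Here 14 of the 15 sites lay in the last 25% of the span, and high and low scores alternated along the stretch. The site at 137 had no neighbour with a score near it. The sites at 65.3 and 15.2 were each listed on 2 rows, with 2.65 and 5.28 on the other row.

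DDX17 and DDX5 are close relatives that act as transcriptional coregulators, splicing regulators and partners of the microRNA-processing enzyme Drosha. DDX17 had 11 sites on chromosome 22 (minus strand, 22.9 kb, 0.481 per kb), spread over 22.4 kb. Its scores from 5′ to 3′ were 35.5 at 38506003, 2.62 at 38505960, 0.705 at 38494752, 10.8 at 38494059, 1.66 at 38493745, 8.06 at 38488038, 168 at 38487986, 78.4 at 38487922, 319.5 at 38486332, 7.21 at 38483899 and 35.6 at 38483570. The site at 319.5 was the highest of any helicase gene and stood at the 99.8th percentile of the list, although its position was listed on 2 rows and the other row had a score of 64.8. Sites stood near both ends of the gene, with 2 in its first 1000 nt and 2 in its last 1000 nt.

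DDX5 had 7 sites on chromosome 17 (minus strand, 8.61 kb, 0.813 per kb). The scores, read 5′ to 3′, were 2.10 at 64504306, 3.30 at 64502991, 1.47 at 64502176, 145 at 64500696, 17.5 at 64500180, 46.7 at 64500072 and 8.90 at 64499921. The 3 sites nearest the start were the 3 lowest, and the 4 sites of the 3′ group lay within 776 nt. DDX5 hosts the hairpin of MIR3064, and its highest-scoring site lay 78 nt downstream of that hairpin, with no site inside it. DDX1, which belongs to the tRNA ligase complex, had a single site with a score of 3.65 at 15621065 on chromosome 2.

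Annotated microRNA hairpins are the parts of these genes for which sequence was at hand, and they show where the nearest sites fall against a known intronic landmark. RefSeq entries on GRCh38.p14 placed hairpins in 3 members. A mature microRNA without a hairpin entry stood in DDX52 and another, hsa-miR-5047, in DDX5. None of these entries held a site. The hairpins are written 5′ to 3′ as RNA, with the mature arms in capitals. They lie at chr17:64500774-64500839 (minus strand, DDX5), chr3:47849555-47849629 (plus strand, DHX30) and chr12:113159113-113159177 (minus strand, DDX54).
MIR3064 in DDX5: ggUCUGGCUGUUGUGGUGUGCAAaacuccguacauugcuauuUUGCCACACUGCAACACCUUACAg
MIR1226 in DHX30: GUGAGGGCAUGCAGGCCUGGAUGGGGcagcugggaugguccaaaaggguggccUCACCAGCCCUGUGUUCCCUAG
MIR7106 in DDX54: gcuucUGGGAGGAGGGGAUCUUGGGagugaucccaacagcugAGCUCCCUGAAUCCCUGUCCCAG
MIR1226 is known as a mirtron, a hairpin that is itself a short spliced intron, and its sequence begins with GU and ends with AG. The nearest YTHDF2 site lay 116 nt downstream of it, with a score of 5.06. In DDX54 the nearest site lay 292 nt downstream of the MIR7106 hairpin, with a score of 35.4. In each of the 3 hosts the nearest site was thus on the downstream side.

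Helicases of ribosome assembly were bound in 14 of 16 cases (87.5%, against 71.7% of the family), with 76 sites in all and a median of 5 per bound gene. DDX21, a nucleolar helicase that couples RNA polymerase I transcription to rRNA processing, had the most, 13 sites on chromosome 10 (plus strand, 28.9 kb, 0.450 per kb). Read along the gene, its scores were 8.79 at 68959839, 27.1 at 68959978, 36.6 at 68960061, 49.2 at 68960197, 14.3 at 68962096, 1.58 at 68963357, 7.14 at 68965426, 2.94 at 68969095, 27.3 at 68970225, 3.55 at 68982757, 4.53 at 68982769, 9.70 at 68982871 and 24.8 at 68983995. Unlike DDX20, it had no dominant cluster, and its densest 1 kb held 4 of the 13 sites. These 4 lay toward the 5′ side of the gene and included its highest scores, 49.2 and 36.6.

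DHX33, an rRNA synthesis factor that also takes part in innate sensing of RNA, had 12 sites on chromosome 17 (minus strand, 28.1 kb, 0.428 per kb). A 5′ group of 3 sites scored 21.8 at 5462452, 41.4 at 5462399 and 5.58 at 5462340. A 3′ group of 9 sites within 725 nt scored 36.5 at 5444287, 4.00 at 5444209, 23.3 at 5444159, 7.36 at 5444047, 22.2 at 5443972, 46.0 at 5443966, 7.46 at 5443851, 1.66 at 5443742 and 17.3 at 5443563. No site lay between the groups, and both groups had scores above 40. The sites at 36.5 and 23.3 were each listed on 2 rows, with 0.119 and 15.1 on the other row.

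DDX24, a nucleolar helicase that also binds p300, had 11 sites on chromosome 14 (minus strand, 32.9 kb, 0.334 per kb). Starting at the 5′ side, the scores were 68.6 at 94079617, 2.09 at 94079351, 26.6 at 94079053, 11 at 94079048, 83.4 at 94062505, 23.4 at 94062487, 49.2 at 94062379, 24.0 at 94060508, 54.0 at 94060297, 24.2 at 94060284 and 121 at 94051191. Of the 11 positions 10 scored at or above the list's median of 8.67, and 5 were listed on 2 rows, more than in any other member. The site at 121 was one of those 5, with 8.60 on the other row.

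The other bound ribosome-assembly genes had 6 or fewer sites. DDX54 and DDX55 had 6 each, DDX18, DDX31 and DDX52 5 each, DDX10 and DDX56 3 each, DDX47, DDX50 and DHX37 2 each, and DDX49 1. In DDX56 all 3 sites lay within 40 nt of each other and 98 to 137 nt from the gene's end, with scores of 39.0, 3.81 and 95.2. In DDX47 both sites were near the end, scoring 83.9 and 31.8. By the higher score of each position DDX54 had the highest median score of the members with 5 or more sites, 32.3, against 31.6 in DDX23. Its 2 positions on 2 rows had 51.15 and 27.2 on the other row. DDX23 had no such position, so the order of these genes rests on taking the higher score. Of DDX54's 6 sites, 4 also lay in the span of CFAP73, a gene to which no strand could be given here. DDX27 and DDX51 had no site.

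Among helicases of splicing, 7 of 11 (63.6%, against 71.7% of the family) had a site, 40 in all, with a median of 7 per bound gene. DDX42, an SF3b-associated protein, led with 9 sites on chromosome 17 (plus strand, 45.5 kb, 0.198 per kb). Along the gene these scored 8.78 at 63813257, 29.1 at 63817775, 26.9 at 63817809, 35.3 at 63817979, 4.95 at 63818166, 20.3 at 63818310, 1.84 at 63818319, 0.666 at 63818391 and 0.0876 at 63819036. The last value is the lowest score of any helicase site. The highest scores lay at the 5′ side of the terminal cluster and the lowest at its 3′ side.

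DDX23, the U5 snRNP helicase needed to form the active spliceosome, had 8 sites, all within 757 nt and all in the last 1000 nt of the gene on chromosome 12 (minus strand). From 5′ to 3′ they scored 22.2 at 48830617, 14.9 at 48830550, 20.5 at 48830352, 121 at 48830150, 135 at 48830145, 25.8 at 48830121, 55.4 at 48830105 and 37.3 at 48829861. It was the only member with 5 or more sites apart from DHX29 in which every site scored above the list's median. DDX23 had no position on 2 rows. In DHX29 this held only for the higher score, since other rows gave 1.09 at 55283432 and 7.32 at 55262789. The sites at 121 and 135 were 5 nt apart.

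DHX15, which dismantles spent spliceosomes, and DHX8, which releases spliced mRNA, had 7 sites each. In DHX8 6 of the 7 lay within 285 nt, from 43523897 to 43524181 on chromosome 17, with scores between 0.786 and 46.4. In DHX15 the sites were spread over 48.6 kb, with the highest score, 39.6, at the most 3′ position. DHX38, which acts at the second catalytic step of splicing, had 4 sites, 3 of them in its last 1000 nt. DDX39A, an mRNA export helicase, had 4 sites with a highest score of 133, and DDX41, a gene of inherited myeloid leukaemia, had 1 site. DDX39B, DDX46, DHX16 and DHX35 had no site, although the first 3 are general splicing factors. Whether their RNAs were rare, or were contacted below the level needed for a listed site, cannot be told apart.

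Helicases of mRNA export, translation and G-quadruplex or R-loop unwinding had sites in 5 of 7 cases, but no gene among them exceeded 7 sites. The share bound was 71.4%, near the 71.7% of the family. DHX29, which helps the 43S ribosomal complex scan structured 5′ leaders, had 7 sites on chromosome 5 (minus strand). From 5′ to 3′ these scored 39.2 at 55283674, 15.7 at 55283621, 15 at 55283516, 44.1 at 55283432, 23.1 at 55283418, 12.8 at 55283215 and 15.5 at 55262789. The first 6 lay within 460 nt, and by the higher score of each position none was below 12.8. DDX19A, a paralog of the mRNA export factor DDX19B, had 6 sites within 825 nt at the 3′ end, and its highest score was only 8.95. DDX3X, a translation initiation helicase, DHX9, which unwinds R-loops and duplex RNA, and DHX36, which resolves G-quadruplexes, had 4 sites each. Their highest scores were 13.3, 10.9 and 26.0.

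Both mitochondrial RNA helicases were bound. DHX30, a factor of mitochondrial ribosome assembly with a cytoplasmic form, had 11 sites on chromosome 3 (plus strand, 47.1 kb, 0.234 per kb). The scores ran, 5′ to 3′, 6.85 at 47815995, 66.9 at 47846238, 52.3 at 47846329, 3.79 at 47846445, 1.68 at 47846501, 24.6 at 47846590, 11 at 47846772, 80.5 at 47846778, 53.9 at 47846856, 1.63 at 47848942 and 5.06 at 47849745. By the higher score of each position, a cluster of 8 sites within 619 nt held every score above 10, and the 3 sites outside it scored 6.85 or less. On other rows the sites at 66.9 and 53.9 scored 2.80 and 13.3. DDX28, which acts in assembly of the large mitochondrial ribosomal subunit, had 7 sites within 679 nt. Its span is only 2.32 kb, so its density of 3.02 sites per kb was the highest of the family, and its scores ran from 1.41 to 46.3.

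The remaining bound members belong to no shared pathway. DHX32, a relative of DHX15 with no settled function, had 11 sites on chromosome 10 (minus strand, 60.1 kb, 0.183 per kb). From 5′ to 3′ they scored 4.75 at 125880993, 43.7 at 125880952, 46.1 at 125880931, 28.4 at 125880869, 90.4 at 125880780, 31.1 at 125880708, 46.4 at 125880663, 0.846 at 125867017, 3.58 at 125859855, 15.4 at 125859822 and 11.6 at 125852301. The 7 sites of its 5′ cluster fell within 331 nt and included all 6 scores above 20. Its span overlaps BCCIP on the opposite strand, whose 5 positions in the shared stretch were not counted for DHX32.

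DHX57, a little-studied DEAH-box protein, had 7 sites in 2 groups over 63.4 kb, 5 within 508 nt on the 5′ side and 2 near the end. DDX59, linked to ciliary signalling, had 5 sites within 608 nt, and DHX34, a factor of nonsense-mediated decay, had 5 within 453 nt. These clusters lay toward the start of the gene, 3270 to 3877 nt from it in DDX59 and 3688 to 4140 nt from it in DHX34. DHX34's scores were highest at its first positions, 71.6 and 31.5, and lowest at its last, 0.920. DHX40 had 2 sites, and DDX11, a DNA helicase of sister chromatid cohesion, had 2 with scores of 4.39 and 5.39.

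The 3 members of innate RNA sensing and the 4 of the germline had no site. Of all protein-coding genes 61.1% had none, so lists this small say little by their count. These were DHX58 (LGP2), a regulator of RIG-I-like receptors, and the interferon-induced DDX60 and DDX60L, and, in the germline list, DDX4 (Vasa), DDX25, DDX43 and DDX53. Of the marker genes of other cell types, 0 of 5 germline genes, 0 of 6 haematopoietic genes and 0 of 3 hepatocyte genes had a site. Of 7 genes chosen as markers of the HEK293T line, 5 had one, among them INA, NEFL and NEFM. Along with DDX3Y and DDX19B, the 7 helicases of these groups and the 6 unbound ones named under splicing and ribosome assembly account for all 15 members with no site.

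**Figure D2:**
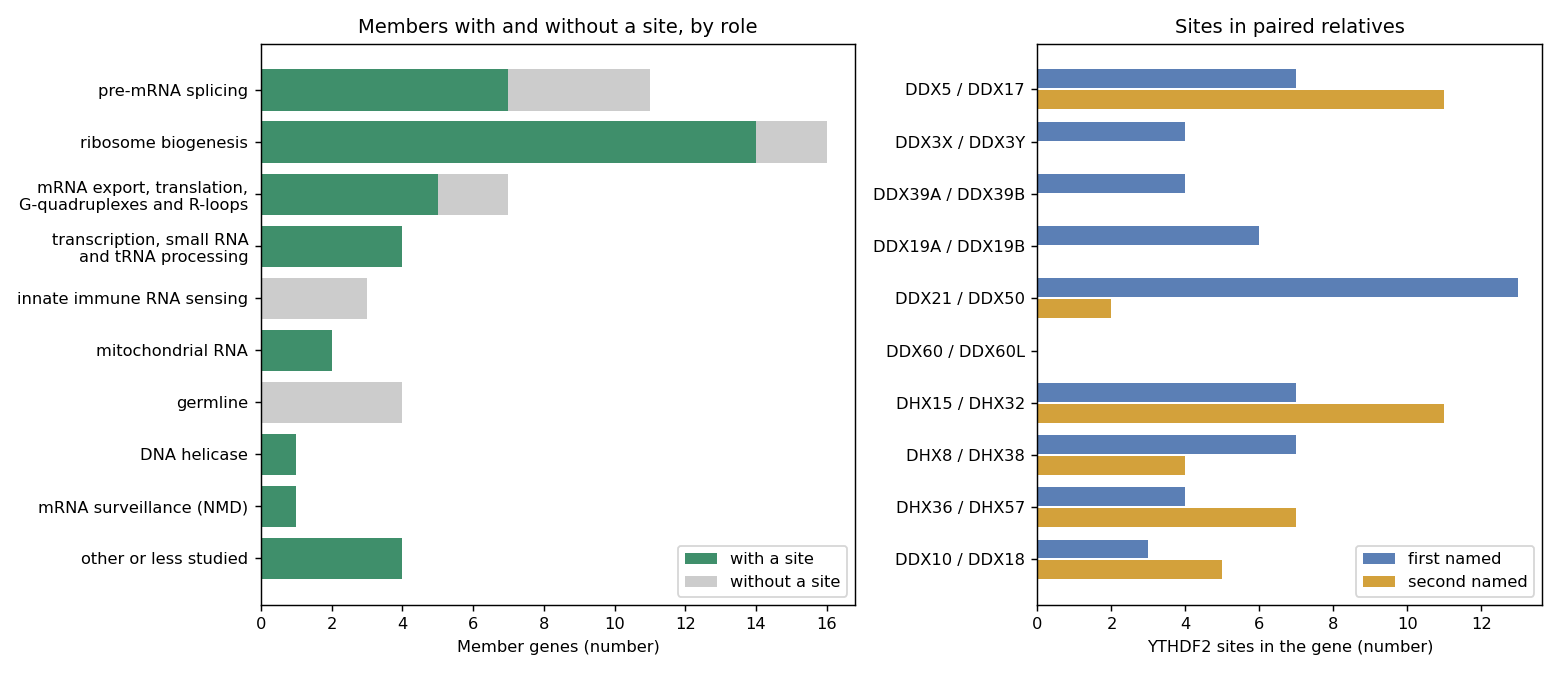
Left, the number of helicase genes with (green) and without (grey) a YTHDF2 site in each role group. Right, the number of sites in each gene of 10 pairs of relatives, where a missing bar is 0 sites. Ribosome assembly had 14 of 16 genes bound and the innate sensing and germline groups none, and DDX21 had 13 sites against 2 in DDX50. Over the family 71.7% of genes had a site, and over all protein-coding genes 38.9%.

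Close relatives often differed in their number of sites. DDX21 had 13 sites and its neighbour and paralog DDX50 had 2. DDX19A had 6 and DDX19B none, DDX39A had 4 and DDX39B none, and DDX3X had 4 and its Y-linked homolog DDX3Y none. Whether these cells carry a Y chromosome was not examined here, so the last pair is not read as a contrast between relatives. DDX17 and DDX5 had 11 and 7, DHX32 and DHX15 likewise 11 and 7, DHX57 and DHX36 had 7 and 4, and DHX8 and DHX38 had 7 and 4. DDX18 and DDX10 had 5 and 3, and neither DDX60 nor DDX60L had any. Some of these pairs may share stretches of near-identical sequence, which was not examined here. The sources used here do not say how reads that fit both copies were treated, so counts for DDX19A and DDX19B, DDX39A and DDX39B, DDX3X and DDX3Y, and DDX5 and DDX17 are uncertain.

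Scores of helicase sites lay above those of the list. The score is the authors' value for each row, on a scale that the sources used here do not state, and where a position stood on 2 rows the higher score was taken. The 225 helicase sites scored 13.5 in the median (quartiles 4.74 and 33.3), and the sites of all protein-coding genes 8.70 (quartiles 3.76 and 20.9). Of the helicase sites, 140 (62.2%) were at or above the list's median, against 50.1% of all sites in genes. With each gene counted once, 29 of 38 members (76.3%) had a median score at or above that of the list, against 49.6% of bound genes. With the lower of 2 scores the medians were 9.95 and 7.04.

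The upper end was less distinct than the middle. Scores of 100 or more were found at 8 helicase sites (3.56%, against 3.27% of all sites), in DDX17, DDX23, DDX20, DDX5, DDX39A and DDX24. These are 6 of the 38 bound members (15.8%, against 10.4% of bound genes whose best site reached 100). All 6 are DDX genes, and the highest DHX score was 90.4, in DHX32. The median of the best score per gene was 45.4 in the members and 21.8 in bound genes in general. The members also had more sites per gene, and the part of this in their best scores was not tested.

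**Figure D3:**
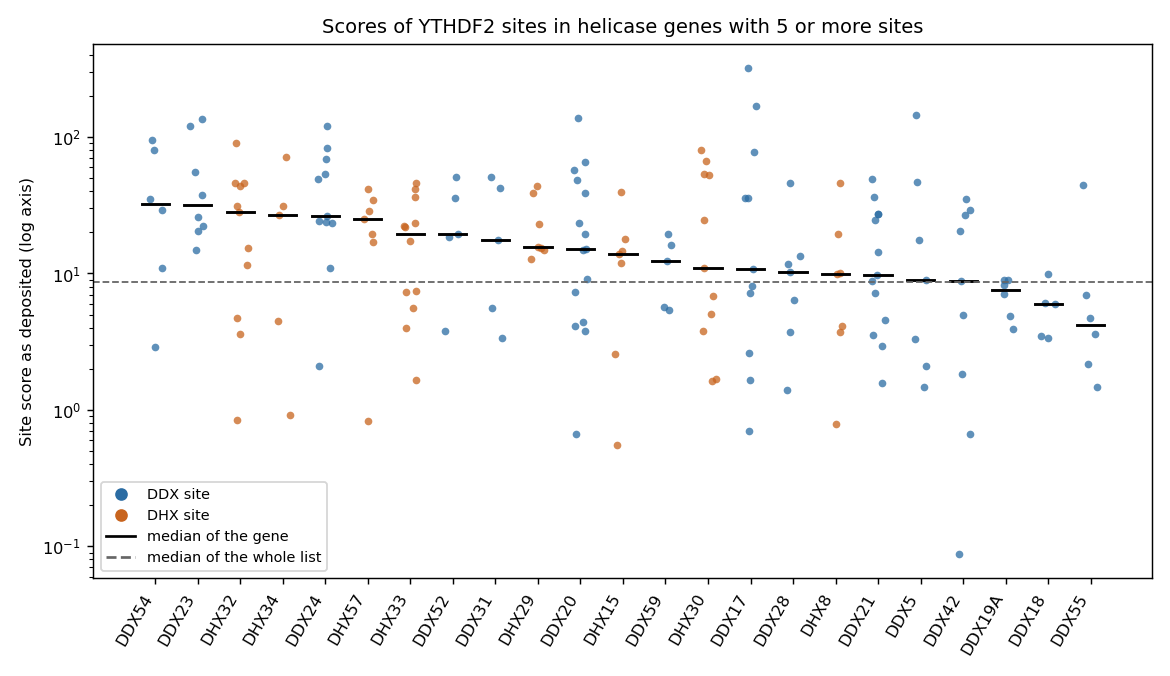
Each point is a YTHDF2 site in a helicase gene with 5 or more sites, with its score as deposited on a log axis. Black bars are gene medians and the dashed line is the list's median of 8.67. Medians run from 32.3 in DDX54 down to 4.17 in DDX55, and the median lies below the dashed line in DDX19A, DDX18 and DDX55.

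Sites of a gene usually stood close together. Within a gene, neighbouring helicase sites were a median of 126 nt apart, against 151 nt over all genes, and 79 of 225 sites (35.1%, against 29.7%) had a neighbour within 50 nt. In 18 of the 23 members with 5 or more sites, 50% or more of the sites fell within 1 kb. This was 78.3% of those members, against 79.3% of all genes with 5 or more sites, so clustering of this kind was as common elsewhere. All sites fell within 1 kb in DDX23, DDX28, DDX19A, DDX55, DDX59 and DHX34. The most dispersed were DDX17, DHX15 and DDX21, in which the densest 1 kb held 27.3%, 28.6% and 30.8% of the sites.

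**Figure D4:**
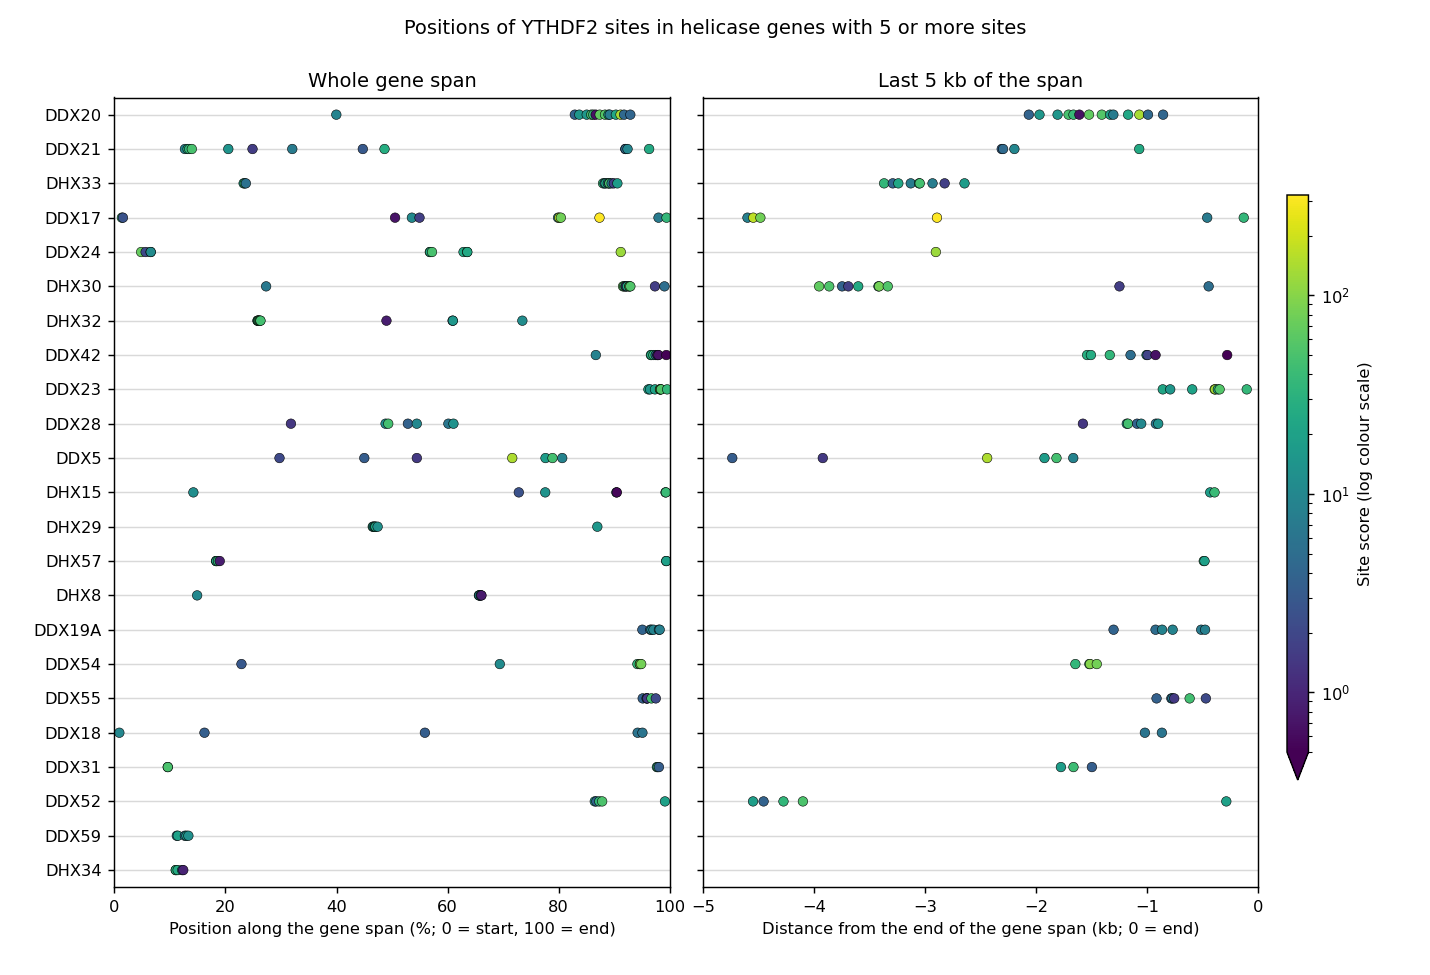
YTHDF2 sites in the 23 helicase genes with 5 or more sites, by position along the gene span (left, in percent) and by distance from the end of the span (right, last 5 kb), coloured by score on a log scale. DDX23 and DDX55 have every site in the last 1 kb, whereas DHX34 and DDX59 have all of theirs in the 5′ part of the span.

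Across the family 120 of 225 sites (53.3%, against 58.4%) lay in the last 25% of the span. The position along the gene differed between the DDX and DHX genes. Of 142 sites in DDX genes 43 (30.3%) lay in the last 1000 nt of the span and 77 (54.2%) in the last 2000 nt, whereas in DHX genes these were 10 (12.0%) and 12 (14.5%) of 83. Over all protein-coding genes the shares were 16.9% and 30.5%. DDX genes had shorter spans, with a median of 25.5 kb against 47.9 kb for DHX genes. With each bound gene weighted equally, the mean share of sites in the last 2000 nt was 58.2% in DDX genes, 23.1% in DHX genes and 38.2% in all bound genes. No site in the last 2000 nt was found in 7 of 13 DHX genes (53.8%) and 5 of 25 DDX genes (20%), against 45.7% of all bound genes. By this measure the DHX genes lay nearer the general share, but their share of sites there (14.5%, against 30.5%) was below it. Without DDX23, DDX55 and DDX19A, the 3 members with the most sites in the last 1000 nt, the DDX shares were 19.7% (24 of 122 sites) in the last 1000 nt and 46.7% in the last 2000 nt. The difference between DDX and DHX genes was not tested. Since the span covers all annotated transcripts and introns, a site far from its end can still be near the end of a shorter transcript.

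Taking both kinds together, 53 of 225 sites (23.6%) lay in the last 1000 nt, against 16.9% over all genes. With each bound gene weighted equally, the mean share was 33.8% in the members and 23.3% in all bound genes. DDX23, DDX55 and DDX19A supplied 19 of the 53, and without them the share of sites was 16.6%. Leaving out the members with the most such sites lowers the share, and no gene was left out of the 16.9%. A site in the last 1000 nt was present in 22 of the 38 bound members (57.9%), against 37.8% of bound genes. The first 1000 nt held only 5 helicase sites (2.22%, against 5.43%), in DDX17, DDX18, DDX28 and DDX50, and none in a DHX gene. The site nearest a start was at 95 nt in DDX50, with a score of 13, and the next was at 157 nt in DDX18, with 9.89.

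By its row order the list falls into a shorter part of 8935 rows and a longer part of 34243, whose meaning is not labelled. Of the helicase sites 37 (16.4%, against 14.8%) stood in both parts, 18 (8%, against 8.95%) in the shorter part alone and 170 in the longer part alone. These shares lay near those of all sites. The single site of DDX41 was found in the shorter part alone. DDX23 and DDX5, with 8 and 7 sites, had none in the shorter part, whereas DDX24 and DDX21 had 5 each there.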

How the data were processed

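The authors' deposited list has no header and gives a stranded position of 1 nt and a score in each row. The sources used here do not state the score's scale, the site caller, the filters or how libraries were pooled. GRCh38.p12, bedtools 2.27.1, UMI-tools 1.0.0, STAR 2.7.3a and FastQC 0.11.8 stand in the submitters' processing notes without a role. Its 43178 rows were joined to 37613 positions, keeping the higher score.

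Gene spans came from RefSeq on GRCh38.p14, without 105 readthrough genes. Strands came from the RefSeq promoter table, which held 48 of the 53 members, and otherwise from the majority of positions in that gene alone (DDX18, DDX49, DDX52 and DHX33). DHX58 had no position on either strand. A position inside 2 genes of its strand counted for both. On genes with a table strand, 99.9% of positions lay on it. Exons, coding sequence and proteins were not used here, so coding density was not computed and density is per kb of span.

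The members and lists were chosen with earlier results of these data known. Every member is named with its count. Some genes of the other lists are not reported here. Full positions are given for those with the most sites, and values for those with the highest score or density, for pairs of relatives and for leaders of each role. The assignment was tested on simulated sites. Alternatives are listed in the closing section. Computation used Python 3.11.15, pandas 2.3.3 and numpy 2.4.6.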

Additional observations from a re-analysis of the deposited data

How the results depend on the processing

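No paired analysis was possible because the list has no value of a single library, and for the same reason no library could be left out. Of 26 recomputed values, 16 stayed near the reported one. Near meant within 1.5 times the reported value or, for shares of sites, within its exact binomial interval. The settings were merging positions within 50 nt, using positions in 1 gene alone, the longer part of the list, the lower score, genes spanning at least 10000 nt and those that follow. Positions at or above the median score gave 140 sites, a median of 3 per bound gene and 0.11 per kb, with 35 genes bound (66.0%, against 30.5% of all genes). The shorter part alone gave 25 bound genes (47.2%, against 22.6%), 55 sites, a median of 2 and 0.0581 per kb. In windows of 2000 nt the last held 39.6% and the first 5.78% of sites, as a wider window must hold more. Leaving out the 3 genes with the most terminal sites, chosen after seeing the data, gave 16.6%. Density per coding length was not run. The depth behind a site is unknown.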

Other observations

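RNA helicases that carry other names showed the same wide range as the DDX and DHX genes. DICER1, which cuts microRNA precursors, had 20 sites with a highest score of 271. UPF1, the central helicase of nonsense-mediated decay, and ASCC3, which splits collided ribosomes, had 11 each.

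Among the translation initiation helicases, EIF4A1 had 6 sites at 0.971 per kb and EIF4A2 had 2. The exon junction helicase EIF4A3 had 3, with a highest score of 125. SNRNP200, which unwinds the U4 and U6 snRNAs, had 5. YTHDC2, an RNA helicase with an m6A-binding YTH domain, had a single site with a score of 21.2. The cytosolic sensors RIGI and IFIH1 had no site, nor did MTREX and SKIC2, the helicases that feed RNA to the nuclear and the cytoplasmic exosome.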
